A study of Caenorhabditis elegans with 4 samples.

Results

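Broad HLH-30 binding intervals in Caenorhabditis elegans were selected on their width in the combined peak list, as all peaks of at least 1000 bp on any chromosome. There were 459 of them among 2791 combined peaks (16.4%), and they held 0.848 Mb, or 41.3%, of the 2.05 Mb that the list covered. The other 2332 peaks are called narrower peaks here. The study mapped HLH-30 by chromatin immunoprecipitation and sequencing (ChIP-seq) in L4 larval hermaphrodites, with 2 ChIP libraries and 2 input libraries of chromatin that was not immunoprecipitated. Every library came from strain OP433, grown at 20 °C on E. coli HB101. This strain carries the unc-119(ed3) allele on chromosome III together with wgIs433, a transgene that holds hlh-30 fused to TY1, EGFP and FLAG beside a functional unc-119(+) copy. It was made by bombardment with a recombineered plasmid, and its fusion protein is described by the labels as expressed in the pattern of hlh-30. The sources used here give neither the number of transgene copies nor the state of the native hlh-30 gene. Peak lists of both ChIP replicates and the combined list were analysed, all on genome build WormBase WS180. The input libraries are not analysed here.

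HLH-30 is a transcription factor of the basic helix-loop-helix leucine zipper class and the nematode relative of mammalian TFEB. It binds short E-box elements as a dimer and is known for inducing genes of lysosomes, autophagy and fat breakdown when food is short. In ChIP-seq, chromatin is sheared into fragments, so that a single bound element gives a signal about as wide as the fragments, and a much longer interval can hold several bound elements side by side. The lists name an interval and a q-value for each peak, with no summit and no reads, so the number of bound elements inside an interval could only be approached through the separate peaks that each replicate placed in it. Those separate replicate peaks are called pieces here.

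The widths of the broad peaks were spread unevenly. The narrowest measured 1001 bp, the median 1473 bp, the upper quartile began at 2060.5 bp and the widest reached 15906 bp. There were 241 peaks of 1000 to 1499 bp, 97 of 1500 to 1999 bp, 70 of 2000 to 2999 bp, 43 of 3000 to 4999 bp and 8 of 5000 bp or more. The threshold did not fall in a gap of the distribution, since 72 peaks measured 1000 to 1099 bp and 101 measured 900 to 999 bp. Just inside it lay peaks of 1001, 1004, 1005, 1006 and 1006 bp, with a peak strength (−log10 q) of 19.2, 8.20, 11.7, 5.06 and 10.2. Just outside it lay peaks of 999, 999, 998, 995 and 994 bp, with strengths of 11.1, 20.5, 39.1, 5.96 and 16.7. Broad peaks therefore continue the upper end of the width range and do not form a separate class by width.

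Width chose these peaks, and the q-value of the same list grows stronger with the number of reads in an interval, so strength is described without a test. The broad peaks had a median strength of 22.3 and ran from 3.74 to 292.2. They made up 47 of the 50 strongest combined peaks, 78 of the strongest 100 and 247 of the strongest 500. Strength rose with width, from a median of 16.9 at 1000 to 1499 bp to 32.5 at 2000 to 2999 bp and 181.5 at 5000 bp or more. Breadth did not always go with strength, as 17 broad peaks stood in the weakest 20% of the list. The weakest of all, on chromosome V at 12539074 to 12540314, had a strength of 3.74 at a width of 1241 bp. Conversely, the 3 peaks under 1000 bp among the strongest 50 all lay on chromosome III and measured 942, 948 and 793 bp.

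Most broad peaks were also called in each replicate. Of the 459, 357 (77.8%, 95% Wilson interval 73.8 to 81.3) overlapped a peak of both replicates by at least 1 bp, where the share over all 2791 combined peaks was 44.5%. Among the narrower peaks the count was 884 of 2332 (37.9%, 36.0 to 39.9). A further 20 broad peaks overlapped replicate 1 alone, 30 replicate 2 alone, and 52 (11.3%, 8.74 to 14.6) neither. The combined list shares its source with the replicate lists and a wider interval meets a replicate peak more easily, so these shares are descriptions and nothing is read from the difference between them. Intervals cover counting error only.

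**Figure D1:**
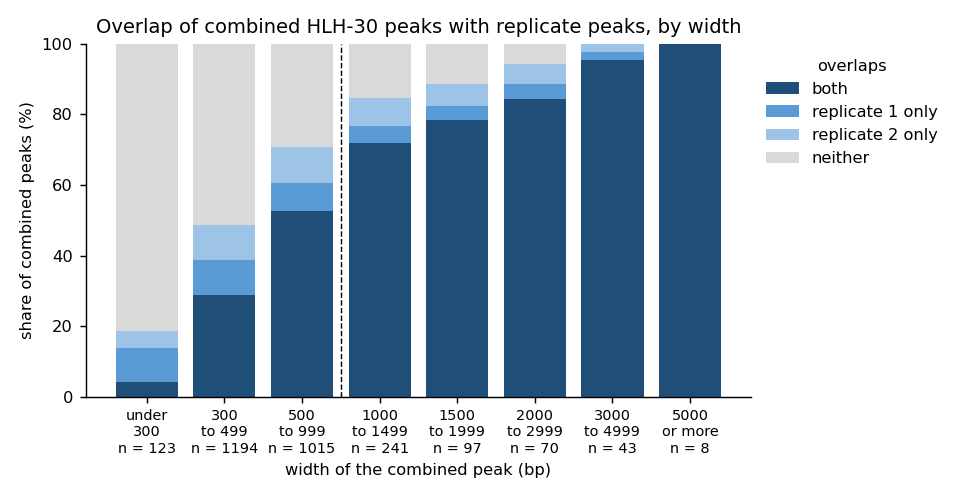
Stacked bars give the share of combined peaks (%) that overlap a peak of both replicates, of 1 replicate or of neither, in 8 classes of combined peak width (bp), with the number of peaks under each bar. The dashed line marks 1000 bp. The share in both replicates climbs from 4.07% under 300 bp through 71.8% at 1000 to 1499 bp to all 8 peaks of 5000 bp or more.

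Within the broad peaks the share in both replicates was 71.8% at 1000 to 1499 bp, 78.4% at 1500 to 1999 bp, 84.3% at 2000 to 2999 bp and 95.3% at 3000 to 4999 bp. All 8 peaks of 5000 bp or more were in both. At matched strength the order of broad and narrower peaks was not constant. Between strengths of 5 and 10, 20 of 78 broad peaks (25.6%, 17.3 to 36.3) and 159 of 958 narrower peaks (16.6%, 14.4 to 19.1) were in both replicates. Between 10 and 20 the broad peaks were lower, at 89 of 114 (78.1%, 69.6 to 84.7) against 465 of 531 (87.6%, 84.5 to 90.1). From 20 upward all but 1 of the 249 broad peaks and all 260 narrower peaks were in both.

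That 1 exception was a wide interval on chromosome IV, from 14609636 to 14613756 (4121 bp, strength 33.8). Replicate 2 held a peak of 2049 bp in it, at strength 13.8, which covered 49.7% of the interval. Replicate 1 had no peak there. Another chromosome IV interval, from 16167344 to 16171660 (4317 bp, strength 12.8), was touched by a single replicate 1 peak of 339 bp, which covered 7.85% of it, and by no replicate 2 peak. Among the 20 widest intervals, the other 18 held a peak of each replicate.

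The 52 broad peaks found in neither replicate were weak, with strengths from 3.74 to 12.1 and a median of 5.94. In 47 of them the strength was under 10, and none was wider than 2343 bp. The widest lay on chromosome III from 3619623 to 3621965 (2343 bp, strength 5.22), on I from 529401 to 531560 (2160 bp, 5.97), on III from 5837761 to 5839833 (2073 bp, 9.12) and on I from 5375110 to 5377154 (2045 bp, 5.42). The next 6 by width measured 1672 to 1924 bp, with strengths from 4.43 to 10.6. Of the 52, 31 (59.6%) had another combined peak within 5 kb, and 8 had one within 500 bp. Over all 459 broad peaks these counts were 312 (68.0%) and 120 (26.1%), so the 52 were not closer to neighbours than broad peaks in general. Among the 8 was the 1808 bp interval on V from 10711667 to 10713474, which had a strength of 4.68 and ended 318 bp before a 4489 bp peak of strength 102.2.

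The number of pieces per broad peak was low and alike in the replicates. Replicate 1 placed no piece in 82 broad peaks, 1 in 332, 2 in 38 and 3 or more in 7. Replicate 2 placed none in 72, 1 in 333, 2 in 49 and 3 or more in 5. Most broad peaks thus coincided with a single replicate peak, and 292 (63.6%, 59.1 to 67.9) held exactly 1 piece of each replicate. The mean was 0.939 pieces per broad peak in replicate 1 and 0.978 in replicate 2, compared with 0.470 and 0.476 per narrower peak. No narrower peak held 2 pieces of a replicate, so the share may be as high as 0.129% (3 counts of 2332). Piece counts have a limit of resolution. In intervals split by both replicates, the shortest gap between replicate 1 pieces was 203 bp. Bound elements closer together may count as 1 piece, and a narrow interval has little room for 2. Of the pieces, 74.2% in replicate 1 and 75.1% in replicate 2 lay wholly inside the broad peak. Together the broad peaks took up 428 of the 1527 replicate 1 peaks (28.03%) and 448 of the 1559 replicate 2 peaks (28.7%).

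Splitting into several pieces went with width. The 45 broad peaks with 2 or more pieces in replicate 1 (9.80%, 7.41 to 12.9) had a median width of 3067 bp, and the 54 in replicate 2 (11.8%, 9.13 to 15.0) had 3037 bp. Those with 1 piece had median widths of 1429.5 and 1414 bp. Mean pieces per peak rose from 0.780 and 0.817 in replicates 1 and 2 at 1000 to 1499 bp, through 1.06 and 1.11 at 2000 to 2999 bp, to 2.25 and 2.63 at 5000 bp or more. The 7151 bp interval on I, from 7079029 to 7086179, held 2 pieces of replicate 1 and 3 of replicate 2. In all, 66 broad peaks were split in at least 1 replicate, and 33 in both.

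Where both replicates split an interval, the gaps were compared. The 33 intervals held 42 gaps between replicate 1 pieces, with a median length of 330 bp and a range of 203 to 2603 bp. Of these gaps, 36 (85.7%) shared at least 1 bp with a gap between replicate 2 pieces. Over all 42, the centre of the nearest replicate 2 gap lay a median of 134.25 bp away, with a range of 3.5 to 1839 bp, and in 27 it lay within 200 bp. A long gap in 1 replicate can overlap several short ones in the other, as in the widest interval, where a single replicate 2 gap took in 2 of replicate 1. The clearest examples held 3 pieces of each replicate. On chromosome V the interval from 14848325 to 14851629 (3305 bp, strength 102.9) had replicate 1 pieces of 673, 847 and 1017 bp, with strengths of 16.7, 34.7 and 12.1. The replicate 2 pieces measured 594, 666 and 1008 bp, with strengths of 17.8, 25.6 and 9.98, so the middle piece was the strongest in each replicate. On X the interval from 13348307 to 13351702 (3396 bp, strength 36.4) had replicate 1 pieces of 422, 918 and 1271 bp and replicate 2 pieces of 578, 630 and 1266 bp. Their strengths were 4.95, 4.18 and 9.44 in replicate 1 and 6.13, 5.04 and 7.32 in replicate 2. Here the last piece was the strongest in both.

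The widest interval, on chromosome II from 10541852 to 10557757, held the most pieces. Replicate 1 placed 5 pieces in it, of 3885, 812, 5882, 1049 and 1153 bp, with strengths of 17.4, 5.09, 98.8, 19.8 and 15.3. Replicate 2 placed 4, of 1697, 5620, 1699 and 740 bp, with strengths of 17.5, 81.7, 27.3 and 16.0. A single long piece dominated in each: it began 5149 bp from the start of the interval in replicate 1 and 5171 bp in replicate 2, and ended at 11030 and 10790 bp. The flanking pieces of each replicate had strengths under 28, and 56.8% of the interval was covered in both replicates. The second widest, on V from 5838415 to 5846900 (8486 bp), was split differently by the replicates. Replicate 1 had a 982 bp piece of strength 5.18 and a 4262 bp piece of strength 92.1. Replicate 2 had a 1428 bp piece of strength 6.14 and, over about the stretch of the long replicate 1 piece, 4 pieces of 635, 1693, 304 and 558 bp with strengths of 4.18, 61.1, 5.59 and 15.7.

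**Figure D2:**
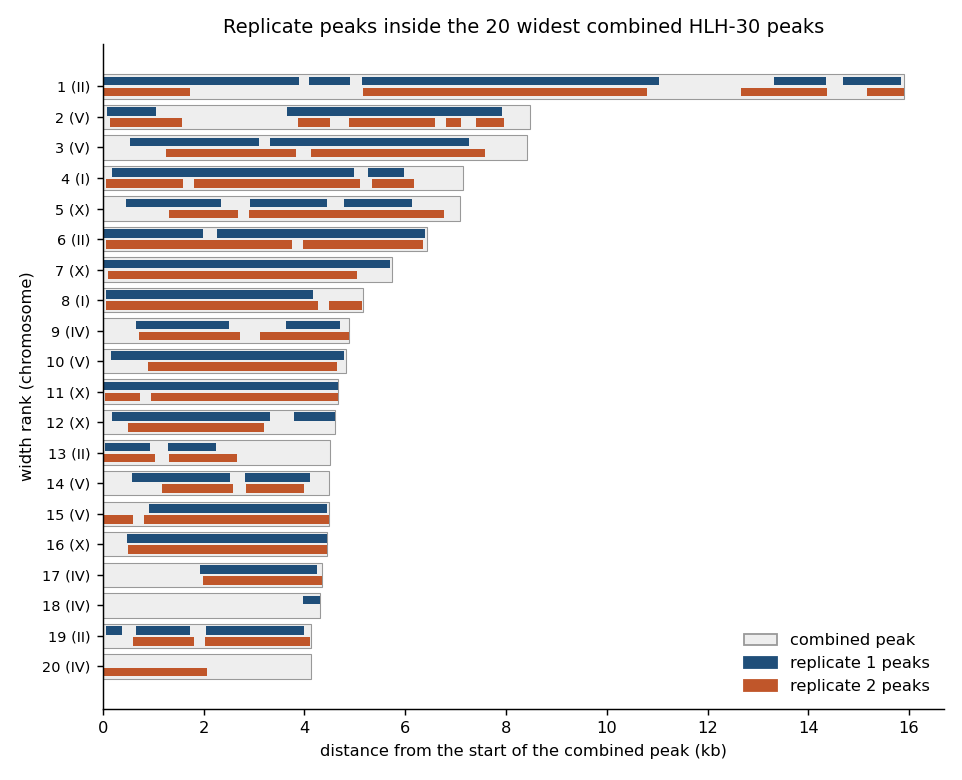
Each grey bar is 1 of the 20 widest combined peaks, ordered by width with the chromosome in parentheses, drawn from its start (distance in kb). Dark blue bars are replicate 1 peaks and orange bars replicate 2 peaks, clipped to the combined peak. The ranks 18 and 20, both on IV, each hold a piece of only 1 replicate, and 18 of the 20 hold pieces of both.

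The 20 widest peaks measured 4121 bp or more. They held 35 pieces of replicate 1 and 38 of replicate 2, and 13 of them stood among the 50 strongest peaks. Chromosomes V and X held 5 each, II and IV 4 each, I held 2 and III none. In 9 of the 20, a single piece spanned at least 50% of the interval's width in each replicate. The share covered in both replicates had a median of 61.7% over the 20 and reached 94.4% in the X interval from 6735260 to 6739922, where the replicate 1 peak of 10616 bp ran on into the next combined peak.

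Replicates often did not call a broad interval as broad. A single replicate peak of 1000 bp or more overlapped 232 broad peaks in replicate 1 (50.5%, 46.0 to 55.1) and 251 in replicate 2 (54.7%, 50.1 to 59.2). In 187 (40.7%, 36.3 to 45.3) both replicates had such a peak, and in 296 (64.5%) at least 1 did. A further 111 (24.2%, 20.5 to 28.3) met only replicate peaks under 1000 bp, and these had a median width of 1186 bp and a median strength of 16.6. In the 292 intervals with 1 piece in each replicate, the replicate peak was a median 0.821 of the combined width in replicate 1 and 0.861 in replicate 2.

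Breadth was also viewed from the replicate lists. They share their source with the combined list, so the overlaps with it are descriptions. Replicate 1 had 254 peaks of 1000 bp or more (16.6% of its list) and replicate 2 had 275 (17.6%). Of these, 243 and 266 overlapped a broad combined peak, and 9 in each replicate overlapped narrower combined peaks only. Of the broad replicate 1 peaks, 197 (77.6%) met a broad peak of replicate 2, and 198 (72.0%) of the broad replicate 2 peaks met one of replicate 1. Only 2, both of replicate 1, met no combined peak. They lay on III from 5814417 to 5815505 (1089 bp, strength 4.12) and on IV from 4023744 to 4036341 (12598 bp, strength 16.1). The reverse of splitting was rare: 5 broad peaks of replicate 1 and 6 of replicate 2 each spanned 2 combined peaks. Among them was the 2058 bp replicate 2 peak on III from 3953036 to 3955093 (strength 46.6), which spanned 2 combined peaks that were both under 1000 bp, 1 of them the 998 bp peak just outside the threshold.

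Among peaks found in both replicates, the replicate peaks filled a smaller part of a broad interval than of a narrower one. Over the 357 broad peaks found in both replicates, replicate 1 pieces covered a median of 80.2% of the interval (quartiles 61.2 and 92.3), replicate 2 pieces 82.3% (60.9 and 92.8), and both together 67.8% (50.0 and 85.6). For the 884 narrower peaks in both replicates the medians were 89.3%, 88.8% and 82.7%. Over all 459 broad peaks, 54.0% of the sequence was covered in both replicates and 24.9% in neither. Over all 2332 narrower peaks these shares were 33.9% and 45.3%. At least 90% was covered in both in 54 of all 459 broad peaks (11.8%) and in 168 of all 2332 narrower peaks (7.20%). Under 50% was covered in both in 192 broad peaks (41.8%). These include 102 with 0%, which were not found in both replicates.

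At matched strength the covered share was lower in broad peaks in each of the 4 classes from a strength of 10 upward. The medians here are over all peaks of a class, and a peak that was not in both replicates counts as 0%. Between 10 and 20, both replicates covered a median of 50.1% of a broad peak and 79.7% of a narrower one. In that class 89 of 114 broad and 465 of 531 narrower peaks were in both, so missing calls enter this difference. Between 20 and 40 the medians were 71.8% and 83.7%, and between 40 and 80 they were 73.1% and 85.4%. At 80 or more they came close, at 80.8% and 82.5%, with only 3 narrower peaks in that class. Width itself enters the denominator of this share, so no test was applied.

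**Figure D3:**
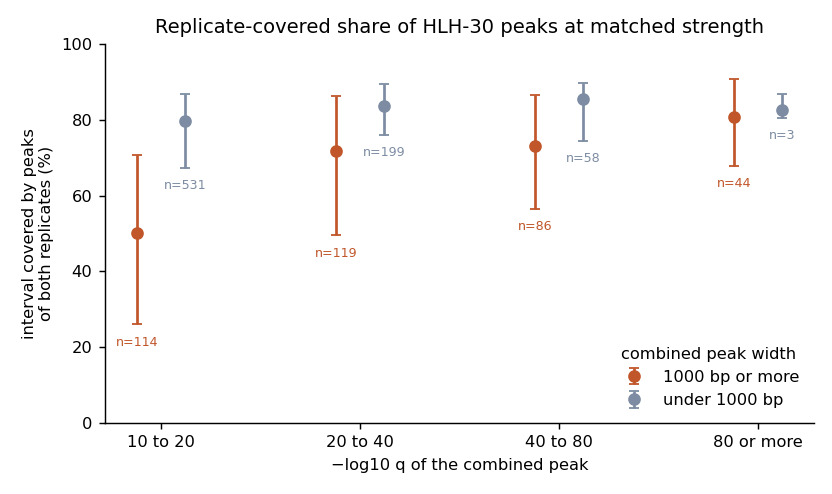
Points give the median share of a combined peak (%) that is covered by peaks of both replicates, in 4 classes of combined −log10 q, and bars run from the lower to the upper quartile over peaks. Orange is for peaks of 1000 bp or more and grey for narrower ones, with the number of peaks under each. Between 10 and 20 the medians are 50.1% and 79.7%. Peaks that are not in both replicates are included and count as 0%.

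Where an interval holds a single piece, its uncovered sequence lies at the ends by definition, and this was so for most. In the 357 broad peaks found in both replicates, the stretches outside the outermost pieces made up 21.0% of the sequence in replicate 1 and 21.8% in replicate 2, and gaps between pieces made up 3.57% and 4.03%. In the intervals that a replicate split, the ends made up 12.4% over 45 intervals in replicate 1 and 13.0% over 53 in replicate 2, and the gaps 14.9% and 15.0%. The uncovered ends were uneven: the longer end had a median of 216 bp in replicate 1 and 178 bp in replicate 2, and the shorter end 22 and 16 bp. An end of more than 500 bp was left uncovered in 107 peaks by replicate 1 (29.97%) and in 104 by replicate 2 (29.1%). In 61 peaks both replicates left such an end, and in 57 of these (93.4%) the longer end was on the same side. In all 357 the pieces of the replicates shared sequence, which by itself favours the same side. Nothing is therefore read from this share. The IV interval from 10933039 to 10937388 (4350 bp, strength 114.0) shows this form. Its replicate pieces of 2323 and 2436 bp covered 53.4% and 54.5%, and the overlap of the replicates covered 52.2%, all in the part towards its end.

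Several strong intervals were covered in part only. On V from 347886 to 349496 (1611 bp, strength 54.8), the replicate 1 piece of 406 bp covered 25.2% and the replicate 2 piece of 853 bp covered 52.9%, at strengths of 27.3 and 25.8. On III from 3873040 to 3876058 (3019 bp, strength 22.4), replicate 1 covered 50.4% and replicate 2 covered 18.3%, at 15.5 and 6.90. On X from 2890167 to 2892248 (2082 bp, strength 22.3), the pieces covered 77.7% and 49.4% and shared 27.1%, leaving 0.0480% in neither.

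The strength reached in the replicates was compared with that of the combined list. In the 357 broad peaks, the strongest piece had a median strength of 13.9 in replicate 1 and 13.3 in replicate 2, and replicate 1 was the stronger in 224 (62.7%). For the 186 broad peaks of strength 20 or more with a single piece in each replicate, the piece had a median 0.511 of the combined strength in replicate 1 and 0.480 in replicate 2. The 260 narrower peaks of this kind gave 0.535 and 0.498. On chromosome IV the mean of both replicates was lower for broad and narrower peaks alike, at a median of 0.406 in 20 broad peaks and 0.406 in 24 narrower ones. On chromosome I it was 0.443 in 29 broad peaks, and on the other 4 chromosomes it lay between 0.512 and 0.514 in the broad peaks.

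Spacing was compared over the width range. The gap to the nearest other combined peak, from edge to edge, had a median of 1574 bp for broad peaks and 5824.5 bp for narrower ones. Up to a width of 1999 bp this was a gradient and no step at 1000 bp. The median gap fell from 8977 bp under 300 bp of width through 7575 bp at 300 to 499 bp and 3622 bp at 500 to 999 bp to 2372 bp at 1000 to 1499 bp and 1195 bp at 1500 to 1999 bp. Next to the threshold the order was the opposite, with 4089 bp at 1000 to 1099 bp and 3102 bp at 900 to 999 bp. The fall did not go on in wider peaks, with 1472 bp at 2000 to 2999 bp and 1574 bp at 3000 to 4999 bp. In the 8 peaks of 5000 bp or more the median gap was 599 bp. From centre to centre, the median distance rose from 2699.5 bp at 1500 to 1999 bp to 3019.25, 4618.5 and 4697.25 bp in the wider classes. Another peak lay within 5 kb of 312 broad peaks (68.0%, 63.6 to 72.1) and of 1092 narrower peaks (46.8%, 44.8 to 48.9). Measured from centre to centre, which does not shorten with width, the shares were 62.1% (57.6 to 66.4) and 44.9% (42.8 to 46.9), and the median distances 3422.5 and 6454.25 bp. The combined list holds no 2 peaks less than 200 bp apart. A neighbour within 500 bp was present for 120 broad peaks (26.1%, 22.3 to 30.3) and for 203 narrower ones (8.70%, 7.63 to 9.92).

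**Figure D4:**
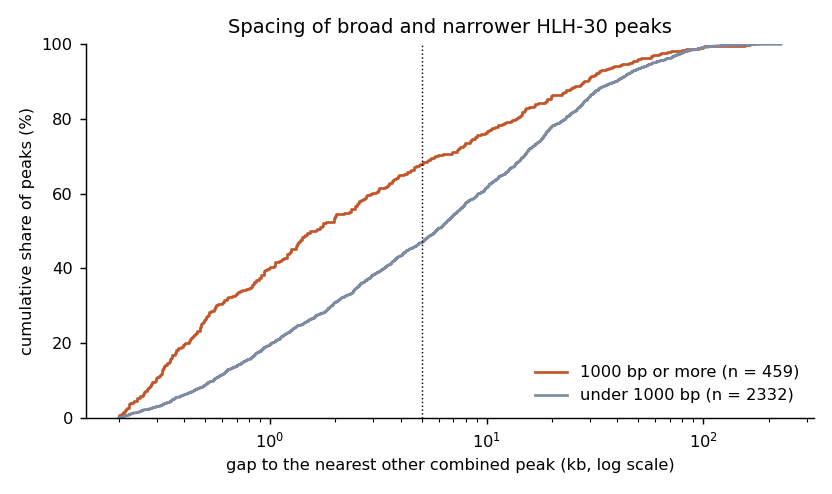
Curves give the cumulative share of peaks (%) against the gap to the nearest other combined peak (kb, log axis), in orange for the 459 peaks of 1000 bp or more and in grey for the 2332 narrower ones. At 5 kb, marked by the dotted line, the curves stand at 68.0% and 46.8%.

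Within each class of strength under 80, the share with a neighbour was higher among broad peaks. Under a strength of 5 it was 61.1% (38.6 to 79.7) in 18 broad peaks and 41.3% (37.4 to 45.4) in the narrower ones, with intervals that overlap. Between strengths of 10 and 20, 75.4% of broad peaks (66.8 to 82.4) had a neighbour within 5 kb, as did 49.9% of narrower ones (45.7 to 54.1). Between 20 and 40 the shares were 69.7% and 52.8%, and between 40 and 80 they were 64.0% (53.4 to 73.3) and 51.7% (39.2 to 64.1), with intervals that overlap. The replicate lists gave similar values for their own peaks of 1000 bp or more. In replicate 1, 63.4% (57.3 to 69.1) of these and 39.2% (36.6 to 41.9) of the narrower peaks had a neighbour within 5 kb, and in replicate 2 the shares were 64.7% (58.9 to 70.1) and 41.0% (38.4 to 43.8).

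Pairs of broad peaks could lie nearly end to end. Of 110 pairs of broad peaks with no peak between them, 31 (28.2%) were within 500 bp of each other, compared with 76 of 695 pairs of a broad and a narrower peak (10.9%) and 67 of 1980 pairs of narrower peaks (3.38%). A single replicate 1 peak bridged 3 of the 110 pairs and a single replicate 2 peak bridged 1. The smallest gap, 201 bp, lay on X between the intervals from 4141982 to 4143801 (1820 bp) and from 4144003 to 4146861 (2859 bp). A further broad peak, from 4147086 to 4148794 (1709 bp), followed after 224 bp. Their strengths were 83.5, 31.6 and 28.4, and each had 1 piece in each replicate. On X, 210 bp separated the intervals from 12662670 to 12667271 and from 12667482 to 12669069, which a single replicate 1 peak of 1937 bp bridged. A gap of 225 bp lay on X between the intervals from 6746572 to 6748529 and from 6748755 to 6750724. A gap of 223 bp lay on I between those from 9380918 to 9382316 and from 9382540 to 9384069.

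When peaks up to 10 kb apart were joined, 109 broad peaks (23.7%) and 896 narrower peaks (38.4%) stood alone. There were 352 groups, single peaks included, with a broad peak, and 71 of them held 2 or more, accounting for 178 broad peaks. The richest held 5 broad peaks each, and there were 4 of these: on III from 5936946 to 5952126, on V from 10708257 to 10737075, and on X from 6728855 to 6750724 and from 11464105 to 11483265. Both X groups consisted of broad peaks alone. In the V group the broad peaks had widths of 1808, 4489, 2764, 2345 and 1514 bp in this order along the chromosome, with strengths of 4.68, 102.2, 82.4, 60.6 and 21.9. The first of these was found in neither replicate and the others in both. In the III group the strongest was a 2045 bp peak of strength 74.7, whose pieces ranked 38 in replicate 1 and 78 in replicate 2. The other 4 broad peaks there had strengths of 28.3, 5.85, 16.8 and 18.8.

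Broad peaks were present on all 6 chromosomes. X held 100, V 93, III 80, II 69, I 67 and IV 50. Chromosome lengths were taken as the last peak end in any of the lists and are lower bounds. On this scale the density was 5.81 broad peaks per Mb on III, 5.65 on X, 4.52 on II, 4.45 on I, 4.45 on V and 2.87 on IV. X and III were thus the densest in broad peaks and IV the sparsest. In narrower peaks III stood well above the other chromosomes, at 36.6 per Mb, and X had 21.4. Broad peaks made up 20.9% (17.5 to 24.7) of all combined peaks on X and 18.5% (15.3 to 22.1) on V. On II, I and IV the share was 14.4%, 15.6% and 15.8%, and on III it was 13.7% (11.1 to 16.7). X held 21.8% (18.3 to 25.8) of broad peaks and 16.3% (14.8 to 17.8) of narrower peaks, and III held 17.4% (14.2 to 21.2) and 21.6% (20.0 to 23.3). The replicates' own lists gave 61 and 63 peaks of 1000 bp or more on X, and 37 and 46 on III.

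The order of the chromosomes in replicate overlap was much the same for broad and narrower peaks. Among broad peaks, on III 68 of 80 (85.0%, 75.6 to 91.2) were in both replicates, on V 75 of 93 (80.6%), on X 79 of 100 (79.0%), on II 53 of 69 (76.8%) and on I 51 of 67 (76.1%). On IV it was 31 of 50 (62.0%, 48.2 to 74.1). The narrower peaks had III highest and IV lowest too, with 44.2% on III, 42.7% on X, 39.8% on V, 36.7% on II, 35.6% on I and 21.1% on IV. The IV members were the most isolated, with a median gap to the nearest peak of 7299 bp, while the medians of the other chromosomes ran from 1197 bp on I to 2389 bp on II. Their median width, 1678 bp, was the largest of the 6 chromosomes, and their median strength, 19.2, the smallest.

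Position along the chromosome was compared next. The part of each chromosome between 33.3% and 66.7% of its length held 187 of the 359 autosomal broad peaks (52.1%, 46.9 to 57.2) and 819 of 1953 narrower ones (41.9%, 39.8 to 44.1). The autosomal centres of this species are known to be rich in genes and the arms in repeats. The share of broad peaks in the centre was 59.1% (49.0 to 68.6) on V, 58.0% (46.2 to 68.9) on II, 47.5% on III, 46.3% on I and 46.0% on IV. Narrower peaks gave 46.1%, 41.6%, 39.5%, 43.1% and 39.1% in the same order, lower on each autosome, with intervals that overlapped on each. On X the shares were 37.0% (28.2 to 46.8) and 26.9% (22.7 to 31.6). At the far end of V, beyond 66.7% of its length, there were 12 of 93 broad peaks (12.9%, 7.54 to 21.2) and 103 of 410 narrower ones (25.1%, 21.2 to 29.5). On X the corresponding counts were 29 of 100 (29.0%) and 169 of 379 (44.6%). The far-end share of broad peaks was also lower on II, at 28.99% against 39.17%, and on I, at 22.39% against 26.52%. The order was reversed on III, at 36.25% against 32.34%, and on IV, at 24.0% against 23.31%. On II, I, III and IV the intervals of broad and narrower peaks overlapped. On V they overlapped slightly, with an upper limit of 21.21 for broad peaks and a lower limit of 21.17 for narrower ones. Only on X were they apart, at 21.0 to 38.5 for broad and 39.7 to 49.6 for narrower peaks.

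**Figure D5:**
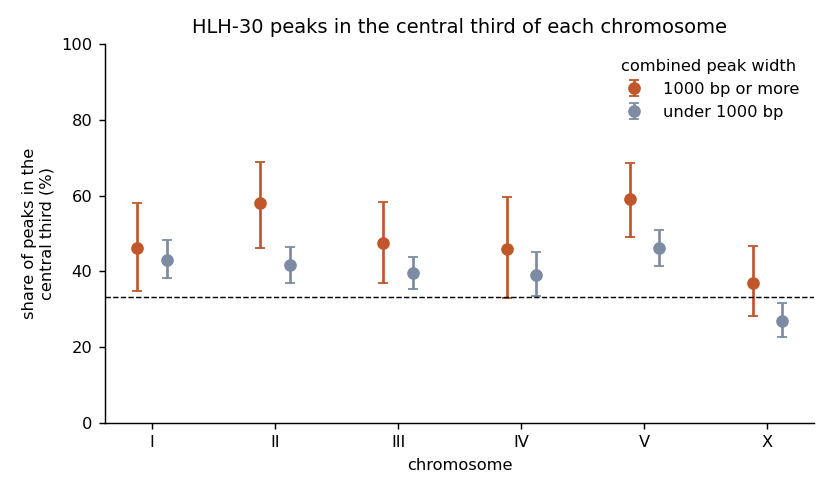
Points give the share of combined peaks (%) whose centre lies between 33.3% and 66.7% of the chromosome's length, for each chromosome, with 95% Wilson intervals, in orange for peaks of 1000 bp or more and in grey for narrower peaks. The dashed line marks 33.3%. The broad peaks range from 37.0% on X to 59.1% on V and lie above the narrower peaks on each chromosome.

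The central position did not grow with width among the broad peaks. It was 56.3% (49.0 to 63.3) at 1000 to 1499 bp, 50.0% at 1500 to 1999 bp, 45.5% at 2000 to 2999 bp and 45.7% at 3000 to 4999 bp, with intervals that overlap. With the threshold moved to 2000 bp the shares came close, at 45.8% above it and 43.4% below. The central share was 52.9% among autosomal broad peaks found in both replicates and 53.7% among those in neither. Between strengths of 40 and 80 it was 60.5% (49.3 to 70.8) for broad peaks and 28.3% (17.3 to 42.5) for narrower ones, and between 10 and 20 it was 47.3% (37.5 to 57.4) and 42.4% (37.8 to 47.1). In the replicates' own lists, autosomal peaks of 1000 bp or more gave 51.8% (44.8 to 58.8) in replicate 1 and 55.7% (48.9 to 62.2) in replicate 2, and narrower peaks gave 41.5% (38.6 to 44.5) and 42.7% (39.7 to 45.7).

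In windows of 1 Mb, the number of broad peaks had a median of 4, and 9 of 103 windows held none. The most was 11, reached from 9 to 10 Mb on III, from 10 to 11 Mb on V and from 4 to 5 Mb on X. These windows held 40, 50 and 30 combined peaks in all, so that broad peaks were a larger part of the X window than of the others.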

How the data were processed

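Both ChIP peak lists and the combined list were used as deposited. Per the file headers they are in GFF version 3 on WormBase WS180, with PeakSeq named as caller. The authors deposited 1 q-value per peak and no reads or heights, so depth is unknown, and a deeper library or a wider interval gives a smaller q-value. Not given in the sources used here are the PeakSeq version, aligner, filters, control and method of combining replicates.

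Width was end minus start plus 1, strength was −log10 q, computed here, and overlap meant at least 1 bp. Shares carry 95% Wilson intervals, which treat peaks as independent although neighbours are not, and a share of 0 carries the limit of 3 counts. Because the lists share libraries and peaks are not replicates, no test was made and no p-value is given. Whether the replicates are separate cultures is not stated, so their spread may be technical. The members, lists and comparisons were chosen with earlier results of these data known. By rule, the named peaks are the 20 widest, 5 on either side of the threshold, up to 10 found in neither replicate, the 5 with most pieces and the 5 closest broad pairs; others were named after their values were seen. Functions were tested on simulated intervals. Alternatives were other widths, stronger peaks only, joined peaks, other overlap, neighbour and centre definitions, and each replicate alone. No sequence or annotation of WS180 was used here, so peaks are named by coordinate. Python 3.11.15, numpy 2.4.6, pandas 2.3.3, scipy 1.17.1 and matplotlib 3.10.9 were used.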

Additional observations from a re-analysis of the deposited data

How the results depend on the processing

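Over 13 results, 77 alternatives were run, of which 50 stayed within the replicate spread, the 95% interval or 1.5 times the count. The 50 include the settings with 1 replicate left out. With 2 replicates such settings fall within the spread by construction, so they are no measure of stability. Thresholds of 800, 1500 and 2000 bp gave 713, 218 and 121 broad peaks, of which 70.3%, 84.4% and 89.3% were in both replicates, and 6.94%, 20.9% and 33.1% held 2 or more pieces (mean of the replicates, 10.8% at 1000 bp, 9.80% and 11.8% with either replicate left out). A replicate peak of the same width class was present in 45.4% at 1500 bp and 39.3% at 2000 bp (52.6% at 1000 bp, 50.5% and 54.7% with either left out). In this section the covered share is the median share covered by a single replicate's pieces, as the mean of the replicates. It is not the share covered in both. It was 73.5% in the main setting, 72.3% and 74.8% with either left out, and 71.4% at 800 bp. Neighbours within 5 kb were present for 74.3% at 1500 bp and 75.2% at 2000 bp, IV held 14.2% at 1500 bp, and 45.8% of autosomal peaks were central at 2000 bp, against 43.4% of narrower ones (47.7% against 43.2% at 1500 bp, 52.1% against 41.9% at 1000 bp). In the stronger 50% of the list, 89.7% were in both replicates, 12.7% had 2 or more pieces, 60.3% had a peak of the same class, and the covered share was 79.3%, below the 87.2% of narrower peaks, whereas over the whole list the median of narrower peaks was 0. Joining peaks up to 500 bp apart gave 21.9% with 2 or more pieces, 62.96% covered, 46.8% with the same class and 55.9% with a neighbour. Neighbours were 62.1% by centres and 54.0% within 2 kb, and the central 50% of the autosomes held 68.2%. Chromosome X held 22.6% of broad and 15.3% of narrower peaks at 800 bp, and 21.8% and 16.3% at 1000 bp. At higher thresholds its shares were closer, with 19.3% and 17.0% at 1500 bp, and 20.7% and 17.0% at 2000 bp. The difference between broad and narrower peaks changed sign in 9 of 72 alternatives: the covered share above, and the shares on I, II and IV, for which no direction is called. No paired analysis was possible because only ChIP libraries, and no inputs with their replicate numbers, have lists here. The lists give no depth, so an interval missing from a replicate is not shown to be unbound there.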
